A study of Mus musculus with 48 samples.

Results

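The Hox genes of the 4 mammalian clusters were followed through gonadal somatic cell development and through the induction of gonadal somatic cell like cells from embryonic stem cells (ESCs). Members were all genes whose symbol is Hoxa, Hoxb, Hoxc or Hoxd followed by a number. There were 39 of them among 22173 genes in the stage counts, 20 among 13682 genes in the table of FPKM (fragments scaled to transcript length and library size), and 39 among 32285 genes in the 10x single-cell matrix. HoxA on chromosome 6 held 11 of them, HoxB on chromosome 11 held 10, and HoxC on chromosome 15 and HoxD on chromosome 2 held 9 each (mm10).

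All material was labelled C57BL/6 mouse. Gonadal somatic cells of E12.5, E13.5 and E16.5 female gonads and of ovaries at 6 weeks (P6w) were given by 2 libraries a stage, with 12694769 to 22259044 counts per library. Fetal somatic cells were the fraction that magnetic sorting for SSEA1, a germ cell surface marker, left behind. Female ESCs, kept on inactivated mouse embryonic fibroblasts that a short plating step removed, were left untreated (Con), given vitamin C (Vc), given AM580, an agonist of retinoic acid receptor alpha, or given both compounds (V580). Each treatment had 2 libraries at 24 h and 2 at 48 h, V580 days 4, 6, 8 and 10 (V580_D4 to V580_D10) had 3 libraries each, and so did E12.5 female gonad cells (E12.5_GC). A single 10x library of V580 day 6 cells held 15412 barcodes. The libraries of a group were not said to come from separate animals or cultures, so p-values measure only the spread between these libraries, which may be technical.

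Some libraries went against their labels or stood apart. Both E12.5 stage libraries, labelled as female gonad, held Y-linked reads, with 97 to 103 counts of Ddx3y and 44 to 78 of Kdm5d against 0 to 4 and 0 to 1 in the other stages. In their descriptions both E12.5 libraries share a name stem, as do both E13.5 libraries, and the labels do not say whether each pair came from 1 pool. The 4 erythroid markers summed to 11593 to 12788 CPM (counts per 1000000 counts of a library) in E12.5, 24566 to 27071 in E13.5, 6444 to 10744 in E16.5 and 192 to 213 in P6w libraries, and the 4 liver markers to 2.64 to 3.36, 153 to 155, 1.83 to 3.83 and 122 to 133. These markers moved with stage, as did the sequencing lane, and their part in the Hox values was not tested. Granulosa markers summed to 1204 CPM or more in every stage library. Gonad somatic markers summed to 1328 to 1347 in E12.5 and 456 to 509 in P6w. Interstitial or mesenchymal markers summed to 752 to 812 in E12.5, 653 to 671 in E13.5, 2536 to 2855 in E16.5 and 307 to 342 in P6w. Germ cell markers summed to 6.86 to 6.98, 21.7 to 23.5, 96.4 to 122 and 6.67 to 7.54 in the same order. The part of these markers in the Hox values was not tested either.

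Hox genes encode homeodomain transcription factors that give cells their position along the head to tail axis. Within a cluster they lie in the order of their paralog numbers, and low numbered (3') genes are activated earlier and further forward in the embryo than high numbered (5') genes. Retinoic acid is a classical activator of 3' and central Hox genes, Polycomb complexes keep silent clusters closed, and PBX and MEIS proteins bind DNA together with HOX proteins. Paralog groups 1 to 4 are called anterior, 5 to 8 central and 9 to 13 posterior below.

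The sequence upstream of 4 members is shown first, because the results below turn on when and where these genes were high. Hoxb4 (chr11:96318017-96318266, plus strand) and Hoxb8 (chr11:96281655-96281904, plus strand) were raised by V580 at 48 h, and Hoxd8 (chr2:74704365-74704614, plus strand) and Hoxd9 (chr2:74697513-74697726, plus strand) were higher in E12.5 gonad cells than in V580 day 6 cells. Sequences end at the RefSeq start on GRCm38.p6, except that of Hoxd9, which was shortened to end before an annotated exon. Capitals mark TATAAA motifs and hexamers of the kind found in retinoic acid response elements, on either strand. The hexamers searched were the AGGTCA form, the AGTTCA form, the GGGTCA form and the GGTTCA form.
Hoxb4: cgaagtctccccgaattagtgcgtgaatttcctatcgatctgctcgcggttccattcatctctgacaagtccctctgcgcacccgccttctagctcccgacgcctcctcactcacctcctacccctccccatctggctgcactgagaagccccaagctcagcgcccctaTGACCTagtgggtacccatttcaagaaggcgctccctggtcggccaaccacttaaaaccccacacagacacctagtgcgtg
Hoxb8: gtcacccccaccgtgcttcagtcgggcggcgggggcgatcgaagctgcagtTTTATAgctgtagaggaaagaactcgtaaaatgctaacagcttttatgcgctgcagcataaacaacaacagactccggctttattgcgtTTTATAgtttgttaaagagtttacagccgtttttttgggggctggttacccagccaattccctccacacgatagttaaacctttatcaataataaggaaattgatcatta
Hoxd8: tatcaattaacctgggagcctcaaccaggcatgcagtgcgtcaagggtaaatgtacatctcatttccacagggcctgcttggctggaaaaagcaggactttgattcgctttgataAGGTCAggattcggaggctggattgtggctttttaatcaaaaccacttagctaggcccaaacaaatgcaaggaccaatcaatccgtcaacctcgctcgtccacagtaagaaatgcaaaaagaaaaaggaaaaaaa
Hoxd9: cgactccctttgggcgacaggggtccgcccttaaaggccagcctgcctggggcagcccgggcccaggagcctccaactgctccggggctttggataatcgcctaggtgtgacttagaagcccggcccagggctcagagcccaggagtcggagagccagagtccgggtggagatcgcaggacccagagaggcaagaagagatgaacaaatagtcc
The Hoxb4 window held 1 hexamer, 81 bases before the start, and the Hoxd8 window held 1, 135 bases before it. Hoxb8 carried 2 TATAAA motifs read on the minus strand, and the Hoxd9 window held none of these letters. RefSeq gave 24 such windows of 250 bases for 22 Hox genes. Of these, 9 (37.5%) held a hexamer, against 38.6% of 32851 windows of all genes, and 4 (16.7%) held TATAAA, against 12.4%. Direct repeats of the hexamers spaced by 1, 2 or 5 bases were in 0 Hox windows and in 0.164%, 0.174% and 0.0883% of all windows. A match describes letters only, and the absence of one says nothing about sites elsewhere in the clusters.

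In gonadal somatic cells the Hox transcripts came mainly from HoxC and HoxD, and their summed level fell with age. Levels are compared between genes as CPM per kilobase of annotated exon (CPM per kb), as the mean of 2 libraries. In E12.5 cells the highest was Hoxd9 (27.6), followed by Hoxc6 (15.4), Hoxd8 (11.3), Hoxc10 (11.3), Hoxc8 (7.73) and Hoxc5 (7.47). Here the libraries of Hoxd8 and Hoxc10 overlapped, as did those of Hoxc8 and Hoxc5. In P6w cells the order was Hoxc6 (13.9), Hoxc10 (7.62), Hoxd9 (4.098), Hoxc8 (3.92), Hoxc5 (3.73) and Hoxd8 (3.52), and the last 4 overlapped.

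All 39 Hox genes together summed to 115 and 112 CPM per kb in the E12.5 libraries, 100.1 and 97.9 in E13.5, 81.5 and 81.96 in E16.5 and 46.6 and 53.6 in P6w. No library of a later stage reached the level of an earlier one. HoxD made up 43.5% of the sum in E12.5 and 24.7% in P6w cells, HoxC 41.3% and 64.4%, and HoxA 7.3% and 2.1%. In such bulk libraries, fewer cells of a type and less RNA per cell cannot be told apart.

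The 5' ends of the clusters were near 0, and so were the 3' ends of HoxB and HoxD. Hoxd13, the most 5' gene of HoxD, had 0 counts in all 8 libraries, and Hoxa13, Hoxb13 and Hoxc13 had at most 6, 3 and 9 counts in a library. Hoxb1 and Hoxd1, the 3' genes of HoxB and HoxD, had at most 5 and 3 counts. A count of 0 over the libraries of a stage allows up to 3 counts, or 0.0714 to 0.118 CPM depending on the stage, which covers counting error only. After the filter on low counts 27 Hox genes were tested, 8 of HoxA, 7 of HoxB, 6 of HoxC and 6 of HoxD.

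**Figure D1:**
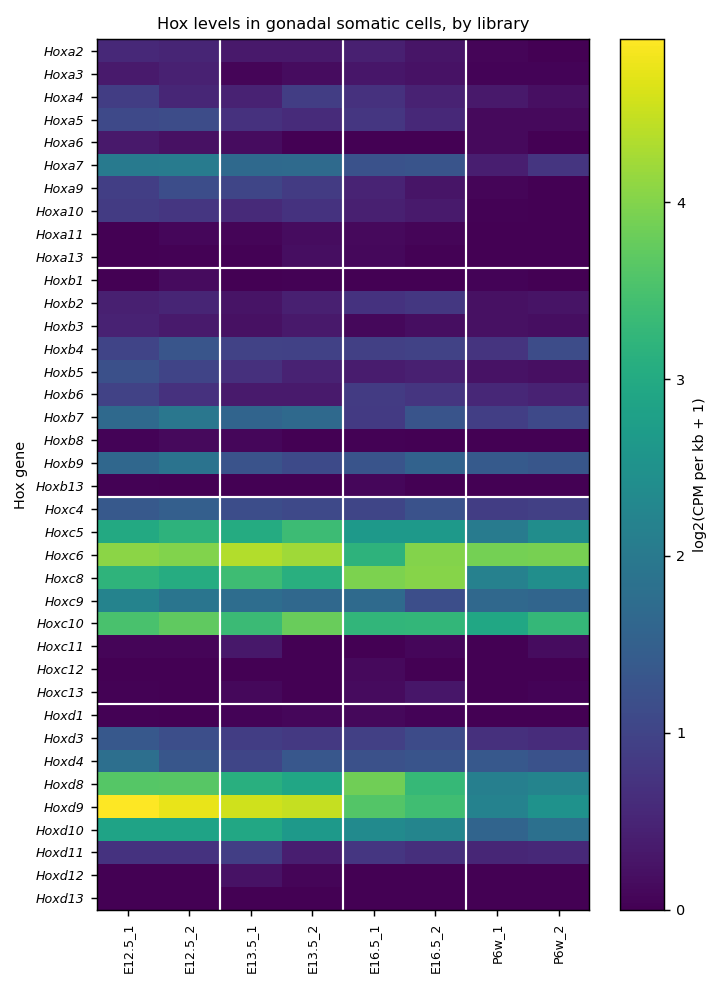
Heat map of 38 Hox genes (rows, by cluster from 3' to 5') in the 8 stage libraries (columns), coloured by log2(CPM per kb + 1). Hoxd9 is the brightest row in E12.5, Hoxc6 has similar colours in E12.5 and P6w, and Hoxa9 and Hoxa10 are dark in P6w.

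Between E12.5 and P6w most of the Hox genes tested fell, and none rose. Of 27 tested, 16 were lower and 0 higher in P6w by edgeR's quasi-likelihood test (Benjamini-Hochberg adjusted p below 0.05), where 27.5% of all genes tested were lower and 25.4% higher. Of the 16, 6 (Hoxa2, Hoxa3, Hoxa5, Hoxa9, Hoxa10 and Hoxb5) did not reach the level of the filter on low counts in either P6w library and so passed it through earlier stages. With no filter 17 of 38 Hox genes were lower and 0 higher. The median log2 fold change was -1.30 over the Hox genes and -0.04 over all genes. By cluster, 6 of 8 HoxA, 2 of 7 HoxB, 4 of 6 HoxC and 4 of 6 HoxD genes were lower, and by position 4 of 10 anterior, 7 of 9 central and 5 of 8 posterior genes. Both P6w libraries lay below both E12.5 libraries for 25 of the 27 Hox genes, and for 41.9% of all genes.

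Hoxd9, a posterior gene of HoxD, had 62.5 and 55.3 CPM in the E12.5 libraries, 48.3 and 45.9 in E13.5, 23.97 and 20.5 in E16.5, and 7.56 and 9.95 in P6w. The stages did not overlap in this gene. Its log2 fold change from E12.5 to P6w was -2.73, with a standard error (SE) of 0.18 (edgeR, Benjamini-Hochberg adjusted p = 5.43e-09).

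Some HoxA genes came close to 0 in P6w cells. Counts of Hoxa9, a posterior gene, were 105 and 139 in E12.5, 114 and 79 in E13.5, 51 and 19 in E16.5, and 3 and 0 in P6w libraries. Scaled to library size it was 55.2-fold higher in E12.5 than in P6w, with a 95% interval of 18.7 to 269 for counting error only. Hoxa10, known for its role in the female reproductive tract, had 56 and 47 counts in E12.5 and 1 and 0 in P6w libraries, a ratio of 69.9 (12.3 to 2786). Both genes were lower in each P6w library than in any fetal one.

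Hoxa7, a central gene, had 8.82 and 9.02 CPM in the E12.5 libraries, 3.92 and 4.14 in E16.5, and 0.976 and 1.99 in P6w. These groups did not overlap, and the log2 fold change from E12.5 to P6w was -2.57 (SE 0.32, edgeR, Benjamini-Hochberg adjusted p = 8.05e-06).

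Other members moved little or turned. Hoxc6 had 38.05 and 35.9 CPM in E12.5 and 33.2 and 33.9 in P6w libraries, and its log2 fold change of -0.12 (SE 0.22) did not pass (edgeR, Benjamini-Hochberg adjusted p = 0.657). Hoxb4 had 2.61 and 3.74 CPM in E12.5 and 1.71 and 3.07 in P6w, and these libraries overlapped. Hoxc8, a central gene, had 23.3 and 20.5 CPM in E12.5, 26.97 and 21.5 in E13.5, 41.1 and 43.02 in E16.5, and 9.84 and 12.4 in P6w libraries. It was highest in both E16.5 libraries and lowest in both P6w libraries. The log2 fold change of Hoxc8 was 0.95 (SE 0.17) from E12.5 to E16.5 and -1.92 (SE 0.18) from E16.5 to P6w (edgeR, Benjamini-Hochberg adjusted p = 0.000475 and 3.91e-07).

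The fetal steps held fewer calls. From E12.5 to E16.5, 1 Hox gene (Hoxc8) was higher and 9 were lower, where 20.5% of all genes were higher and 17.1% lower. The 9 were Hoxa7, Hoxa9, Hoxa10, Hoxb3, Hoxb5, Hoxb7, Hoxc9, Hoxd9 and Hoxd10, with log2 fold changes of -0.66 to -1.83. Leaving out either E12.5 library brought these 10 calls to 5. From E12.5 to E13.5, 7 of 27 were lower (among them Hoxb6, Hoxb9 and Hoxd8) and 0 higher, where 22.1% of all genes were lower and 23.8% higher, so the share of lower Hox genes lay near the background. Of the 7, 2 (among them Hoxb6) were under the filter's level in both E13.5 libraries. These 7 calls moved with single libraries, since 0 were left without E12.5 replicate 2, 1 without E13.5 replicate 2, and 3 without either of the other libraries. Across all genes the fold change of this step also varied with exon length (Spearman rho -0.494 across 16169 genes), and with a length term 15 Hox genes were called.

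From E13.5 to E16.5 the directions were mixed, with 4 Hox genes higher and 7 lower against 28.7% and 25.4% of all genes. The 11 calls fell to 6 without E13.5 replicate 1 or E16.5 replicate 1, and to 7 without E13.5 replicate 2. Hoxd8, a central gene, had 20.98 and 17.8 CPM in E13.5 and 36.8 and 24.3 in E16.5 libraries (log2 fold change 0.65, SE 0.19, edgeR, Benjamini-Hochberg adjusted p = 0.00948). Hoxc6 was lower, with 46.5 and 42.2 CPM in E13.5 and 19.5 and 36.2 in E16.5 libraries. From E16.5 to P6w 12 Hox genes were lower and 0 higher, where 29.8% of all genes were lower and 26.3% higher, and 8 were left without P6w replicate 1. Of the 12, Hoxa2, Hoxa3, Hoxa5, Hoxa9 and Hoxa10 were under the filter's level in both P6w libraries, and with no filter 13 were lower and 0 higher. The comparisons with E12.5 share its libraries, so their calls are not independent.

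Among Hox partners and regulators, 6 of 9 PBX and MEIS genes tested were lower in P6w than in E12.5 and 0 were higher by edgeR, with a median log2 fold change of -0.94. The shares over all genes, to be read beside this and the next counts, were 27.5% lower and 25.4% higher. Meis1, a HOX cofactor, had a mean of 109 CPM in E12.5 and 18.7 in P6w libraries, and Meis2 64.9 and 10.5. Of 5 long noncoding RNAs of the clusters 4 were lower (Hoxb5os, Hoxaas3, Hoxa11os and Hotairm1), with means of 0.341 to 2.696 CPM in E12.5. Among 15 Polycomb and trithorax genes 5 were higher and 5 lower, and among 17 retinoid genes 6 were higher and 9 lower. Of 9 other early Hox regulators 5 were lower and 0 higher, and of 9 genes flanking the clusters 3 were higher and 2 lower. From E12.5 to E13.5 1 PBX or MEIS gene was higher and 5 lower, and of 15 Polycomb and trithorax genes 1 was higher and 9 lower, where 23.8% of all genes were higher and 22.1% lower. The caudal genes passed no filter in any comparison. Whether counting used the strand was not stated, so reads of a Hox gene and of an antisense RNA over it cannot be told apart. This touches Hoxb3, with 52.9% of its exon length under antisense exons, and Hoxa11 with 35.0%. Hoxd3 and Hoxd4 share 62.3% and 52.3% of their exon length with genes on the same strand, each other included.

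**Figure D2:**
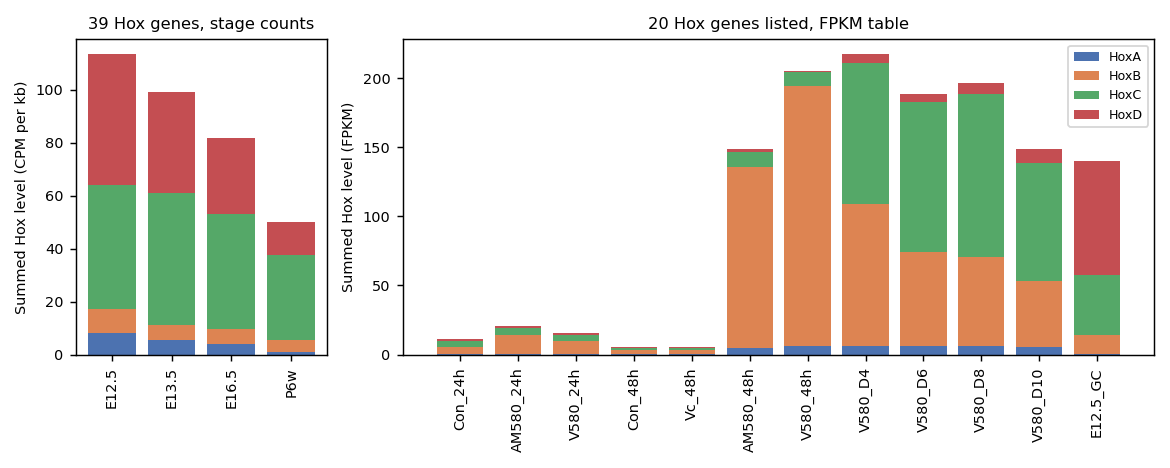
Stacked bars of the mean summed Hox level by cluster, in CPM per kb for the 4 stages (left, 39 genes) and in FPKM for 12 groups of the induction and gonad cells (right, 20 genes). HoxC and HoxD fill most of each stage bar, HoxB makes up 91.8% of the V580_48h bar, and HoxD 58.7% of the E12.5_GC bar.

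In ESC cultures the listed Hox genes were low and AM580 raised 10 of them by 48 h, 7 of these in HoxB. The FPKM table listed 1 of 11 HoxA genes (Hoxa3), 7 genes of HoxB (Hoxb3 to Hoxb9), 6 of HoxC and 6 of HoxD. The summed level of these 20 was 5.57 and 5.79 FPKM in the Con_48h libraries, 5.09 and 5.47 with Vc, 151 and 146 with AM580, and 193 and 218 with V580. At 24 h the sums were 12.1 and 10.7 in Con, 11.3 and 10.3 with Vc, 20.4 and 20.3 with AM580, and 15.5 and 15.2 with V580. The AM580 and V580 libraries lay above the Con and Vc libraries at each time.

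The controls differed between the times. Of the 20 genes, 11 were lower in both Con_48h libraries than in both Con_24h libraries and 3 were higher, while 37.7% of all 13682 genes were lower and 38.9% higher in this way. Fibroblast markers summed to 276 to 286 FPKM in Con_24h and 106 to 109 in Con_48h, and interstitial or mesenchymal markers to 95.3 to 105 and 23.98 to 25.1. The part of feeder cells in these control values was not tested. Pluripotent markers summed to 2270 FPKM or more in every 24 h and 48 h library.

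At 24 h few Hox genes passed. With AM580, Hoxb4 and Hoxb5 were higher and 0 lower of 13 tested (limma, adjusted p below 0.05 and at least 2-fold), where 0.366% of all genes were higher and 0.0376% lower. Of these, 1 was left without AM580_24h replicate 2 or Con_24h replicate 2. Hoxb4 and Hoxb5 were under 1 FPKM, the level of the filter, in every Con and Vc library. They were thus tested only through AM580 and V580 groups, where they were high. With V580, Hoxb4 alone was higher and 0 were lower, where 0.47% and 0.225% of all genes were, and the call was lost without Con_24h replicate 1. Hoxb4, an anterior gene known for its effect on blood stem cells, had 0.733 and 0.935 FPKM in Con, 0.818 and 0.687 with Vc, 3.96 and 4.72 with AM580, and 2.92 and 2.72 with V580. Its AM580 and V580 libraries lay above all Con and Vc libraries. The log2(FPKM + 1) difference from Con was 1.54 (SE 0.09) for AM580 and 1.06 (SE 0.09) for V580 (limma, Benjamini-Hochberg adjusted p = 1.19e-08 and 3.39e-07). Differences on this scale understate the change of low genes, and the depth of the FPKM libraries is unknown.

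By 48 h 10 of 13 Hox genes were higher and 0 lower with AM580, where 2.33% of all genes were higher and 0.902% lower. With V580 10 were higher and 0 lower, where 1.84% and 1.34% of all genes were. In each case the 10 were Hoxa3, Hoxb3, Hoxb4, Hoxb5, Hoxb6, Hoxb7, Hoxb8, Hoxb9, Hoxc4 and Hoxc5. Both Con_48h libraries were under 1 FPKM in all 10. Hoxa3, Hoxb3, Hoxc4 and Hoxc5 reached 1 FPKM, the level of the filter, in no other treatment group than AM580_48h and V580_48h. Hoxb4, Hoxb5 and Hoxb8 reached it only in AM580 and V580 groups. Outside those groups Hoxb6 reached it in Vc_24h replicate 1 alone (1.07 FPKM) and Hoxb7 in Con_24h replicate 2 alone (1.14 FPKM). The filter needed 2 libraries. These members were thus tested only through groups where they were high. With no filter, 10 of all 20 listed genes were higher and 0 lower in each contrast. Both treated libraries lay above both Con libraries for 13 of the 13 genes with AM580, against 36.2% of all genes, and for 12 with V580, against 37%. The median log2(FPKM + 1) difference of the 13 genes was 2.30 for AM580 and 2.42 for V580, against -0.03 and -0.02 over all genes, and both contrasts use the same Con_48h libraries. Tested as a difference between the times, the effect was larger at 48 h for 10 of 13 Hox genes with AM580, where 1.9% of all genes differed in either direction, and for 10 with V580, where 1.83% did.

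Among the listed genes, which hold only 1 of 11 HoxA genes, the HoxB genes carried most of the rise. Hoxb4 had 0.863 and 0.87 FPKM in Con_48h, 38.7 and 37.04 with AM580, and 57.4 and 66.9 with V580. Hoxb5, a central gene, had 0.379 and 0.341 FPKM in Con_48h, 25.4 and 26.3 with AM580, and 31.3 and 35.4 with V580. Hoxb9, the most 5' of the HoxB genes listed, had 0.899 and 0.664 FPKM in Con_48h, 25.3 and 24.9 with AM580, and 31.9 and 35.9 with V580. In each of these genes every treated library was far above both controls, and the V580 pair lay above the AM580 pair. For V580 the log2(FPKM + 1) difference from Con was 5.08 (SE 0.09) for Hoxb4, 4.66 (SE 0.08) for Hoxb5, 4.29 (SE 0.11) for Hoxb9, and 1.60 (SE 0.07) for Hoxb3, the most 3' one listed.

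Of the HoxC genes tested, the 2 most 3' ones were called. Hoxc4 had 0.196 and 0.0555 FPKM in Con_48h, 4.54 and 4.56 with AM580, and 4.81 and 5.22 with V580. Hoxc6, further 5', had 0.376 and 0.493 FPKM in Con_48h and 0.727 and 0.955 with V580, a log2(FPKM + 1) difference of 0.36 that passed the limma test (Benjamini-Hochberg adjusted p = 0.0187) but not the 2-fold limit. HoxD genes did not reach 1 FPKM in 2 of these 16 libraries and were not tested. Hoxd9 had 1.26 and 0.914 FPKM with AM580 and 0.492 and 0.308 with V580.

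Vc alone changed no Hox gene past the limits. At 24 h limma called 0 of 13, where 0.0846% of all genes were called, and 3 had an unadjusted p under 0.05. At 48 h limma called 0, where 0.047% of all genes were called, and 2 had an unadjusted p under 0.05. Hoxb4 was at 0.578 and 0.493 FPKM with Vc at 48 h, below both controls.

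AM580 and V580 differ by vitamin C at matched times. Both V580 libraries lay below both AM580 libraries for 10 of 13 Hox genes at 24 h, against 32.3% of all genes, and above them for 9 of 13 at 48 h, against 31.6%. Limma called 0 past both limits, where 0.0658% of all genes were called at 24 h and 0.263% at 48 h, while 7 and 8 Hox genes had an unadjusted p under 0.05. For Hoxb4 the log2(FPKM + 1) difference of V580 from AM580 was -0.48 (SE 0.09) at 24 h and 0.70 (SE 0.09) at 48 h (limma, Benjamini-Hochberg adjusted p = 0.00165 and 5.23e-05), both under 2-fold.

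**Figure D3:**
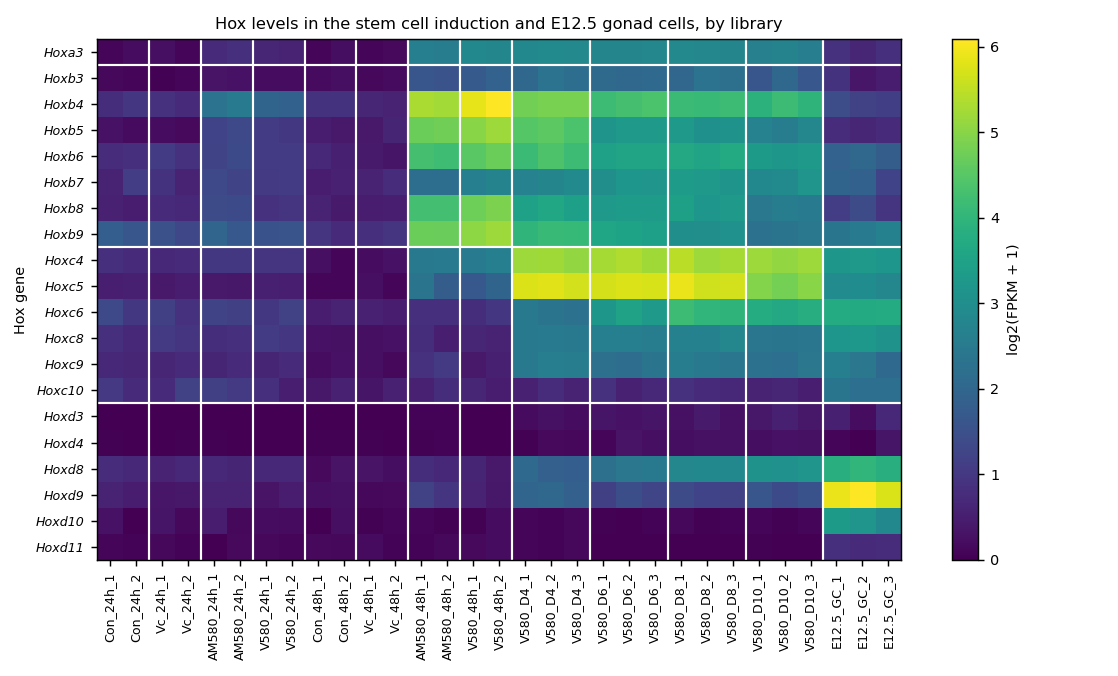
Heat map of the 20 Hox genes listed (rows, by cluster) in 31 libraries (columns, by group), coloured by log2(FPKM + 1). HoxB rows turn bright at 48 h with AM580 and V580, Hoxc4 and Hoxc5 brighten further in V580_D4, and Hoxd9 is brightest in the E12.5_GC columns.

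Some retinoid genes and Hox cofactors passed as well, though most did not. Cyp26a1, which degrades retinoic acid and is a target of its receptors, had means of 4.76 FPKM in Con_24h and 21.98 in V580_24h, and of 0.8597 in Con_48h and 121 in V580_48h. Of 13 retinoid genes 3 were higher with V580 at 24 h (among them Cyp26a1 and Dhrs3) and 5 at 48 h (among them Rarb and Stra6), and 0 were lower, where 0.47% and 1.84% of all genes were higher. Of 9 PBX and MEIS genes 4 were higher with V580 at 48 h (among them Meis1 and Meis2) and 5 with AM580, where 2.33% of all genes were higher with AM580. Of 14 Polycomb and trithorax genes limma called 0 with V580 at 48 h, and 9 had an unadjusted p under 0.05. Of 8 other early Hox regulators Zfp703 was called with V580 at 48 h, and of 7 flanking genes Calcoco2, both as higher.

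From the 48 h to the day 4 libraries of V580, part of HoxB was lower and most of HoxC higher. The 24 h and 48 h libraries and the day libraries share no group. Time and any difference between these sets of libraries cannot be told apart in this step. From V580_48h to V580_D4, 7 of 17 Hox genes were higher, where 9.36% of all genes were, and 3 were lower, where 6.2% were. The higher ones were Hoxc4, Hoxc5, Hoxc6, Hoxc8, Hoxc9, Hoxd8 and Hoxd9, and the lower ones Hoxb4, Hoxb8 and Hoxb9. Of the 7, Hoxc6, Hoxc8, Hoxc9, Hoxd8 and Hoxd9 were under 1 FPKM in both V580_48h libraries, and with no filter the counts were again 7 and 3, of 20 genes. Pluripotent markers summed to 2306 to 2425 FPKM in V580_48h and 212 to 238 in V580_D4.

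Hoxc5, a central gene, had 2.201 and 2.91 FPKM in V580_48h and 53.5, 55.5 and 49.9 in V580_D4. Hoxc4, its 3' neighbour, had 4.81 and 5.22 FPKM and 35.6, 36.3 and 33.5. Hoxb4 had 57.4 and 66.9 FPKM in V580_48h and 26.7, 28.2 and 28.01 in V580_D4. None of these groups overlapped, with log2(FPKM + 1) differences of 3.93 (SE 0.11) for Hoxc5, 2.59 (SE 0.07) for Hoxc4 and -1.14 (SE 0.09) for Hoxb4. The share of HoxB in the listed Hox level was 91.8% in V580_48h, 47.2% in V580_D4, 36.1% in V580_D6, 32.9% in V580_D8 and 32.0% in V580_D10. That of HoxC was 4.8%, 47.1%, 57.6%, 59.9% and 57.5% over the same groups.

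The V580 group with the highest mean differed between listed genes, also within clusters. Of 7 HoxB genes, 5 had their highest mean at 48 h and 2 on day 8. Of 6 HoxC genes, 2 were highest on day 4 and 4 on day 8. Hoxd3, Hoxd4 and Hoxd8 were highest on day 10, Hoxd9 on day 4, Hoxd10 at 24 h and Hoxd11 at 48 h. Of the HoxD genes only Hoxd8 and Hoxd9 reached a mean of 1 FPKM in a V580 group. Some maxima overlapped with other days, as in Hoxc4, with means of 38.7 on day 8 and 38.0 on day 6. Hoxa3, an anterior gene and the only HoxA gene listed, stayed between 5.09 and 6.47 FPKM from 48 h to day 10.

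From day 4 on 1 Hox gene was called between successive V580 days. Between V580_D4 and V580_D6 Hoxb5 was lower and 0 were higher of 17, where 1.67% of all genes were lower and 3.41% higher. It had 21.5, 22.6 and 19.7 FPKM in V580_D4 and 7.94, 8.603 and 8.86 in V580_D6, with no overlap (log2(FPKM + 1) difference -1.23, SE 0.08, limma, Benjamini-Hochberg adjusted p = 1.91e-08). A second call appeared without V580_D4 replicate 1, V580_D6 replicate 1 or V580_D6 replicate 3. Limma called 0 of 17 between V580_D6 and V580_D8, where 2.55% of all genes were called, and 0 between V580_D8 and V580_D10, where 1.29% were, with 3 and 11 at an unadjusted p under 0.05.

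Smaller steps ran in 1 direction for some genes. Hoxb9 had 14.8, 16.3 and 15.9 FPKM in V580_D4, 11.2, 10.6 and 9.8002 in V580_D6, 7.23, 7.08 and 7.51 in V580_D8, and 3.91, 4.05 and 4.39 in V580_D10. Hoxd8 had 3.23, 2.65 and 2.55 FPKM in V580_D4, 3.71, 4.36 and 4.52 in V580_D6, 6.07, 6.15 and 6.13 in V580_D8, and 7.79, 7.47 and 8.03 in V580_D10. Each day lay below the one before in Hoxb9 and above it in Hoxd8, with no overlap. Interstitial or mesenchymal markers summed to 67.9 to 78.9 FPKM in V580_D4, 174 to 182 in V580_D6, 508 to 645 in V580_D8 and 1315 to 1623 in V580_D10, and their part in the Hox values was not tested.

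**Figure D4:**
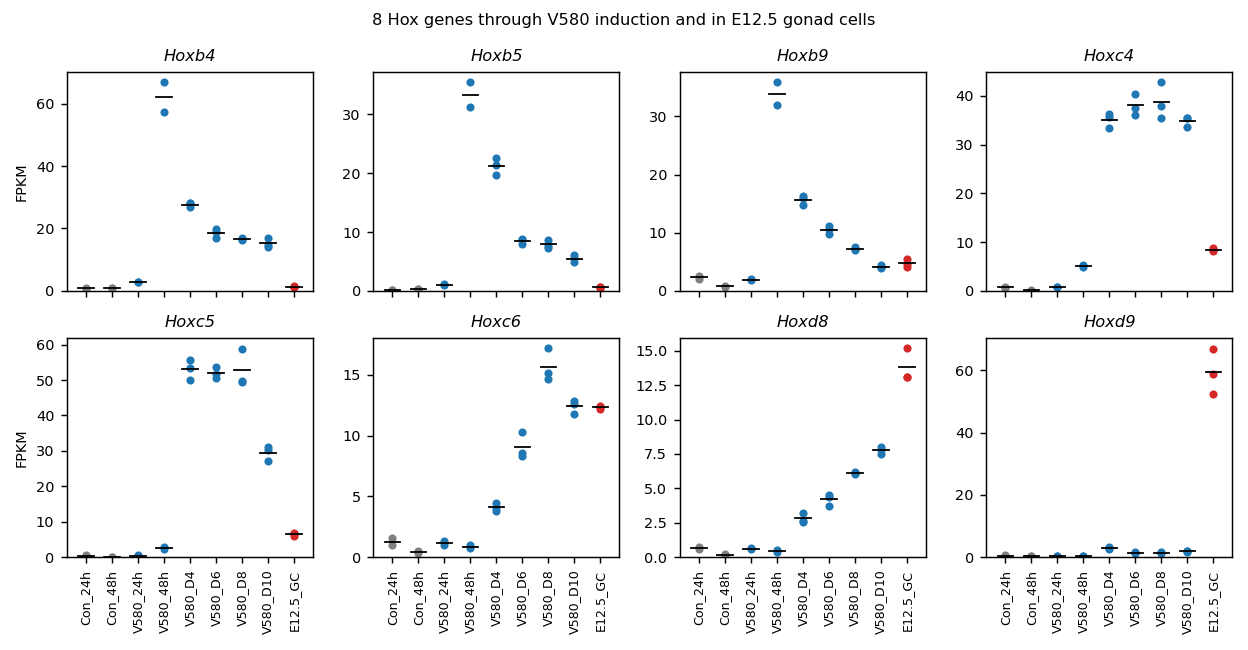
FPKM of 8 Hox genes (y axes) by group (x axes), with a dot per library and a line at the group mean. Hoxb4, Hoxb5 and Hoxb9 are highest in V580_48h, Hoxc6 in V580_D8, and Hoxd8 and Hoxd9 in E12.5_GC.

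Induced cells and E12.5 gonad cells differed in the levels of many Hox genes, with HoxB genes higher in induced cells and Hoxd9 higher in gonad cells. Of 17 tested, 10 were higher in V580_D6 than in E12.5_GC, where 7.06% of all genes were, and 4 were lower, where 8.11% were. The 10 were Hoxa3, the 7 HoxB genes, Hoxc4 and Hoxc5, and the 4 were Hoxc10, Hoxd8, Hoxd9 and Hoxd10. By position, 4 of 4 anterior, 5 of 8 central and 1 of 5 posterior genes (Hoxb9) were higher in day 6 cells, and 1 central gene (Hoxd8) and 3 posterior genes were lower. Hoxc10 and Hoxd10 reached 1 FPKM in the E12.5_GC libraries alone among these 15 libraries, and Hoxa3, Hoxb3 and Hoxb5 in V580 libraries alone. Hoxb8 had 1.16, 1.65 and 0.872 FPKM in E12.5_GC, so without V580 libraries it missed the 3 libraries the filter needed. These members were thus tested only through the cells where they were high. With no filter, 10 of all 20 listed genes were higher and 4 lower. On day 10, 9 were higher, where 9.16% of all genes were, and 3 lower (Hoxc10, Hoxd9 and Hoxd10), where 7.23% were, with the same counts without the filter. Leaving out any 1 E12.5_GC library (replicate 1, 2 or 3) left 15 Hox genes tested, without Hoxc10 and Hoxd10, and brought the lower calls to 2 on day 6 and 1 on day 10. Both contrasts share the E12.5_GC libraries.

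Hoxd9 had 58.7, 66.998 and 52.5 FPKM in E12.5_GC and 1.21, 1.75 and 1.41 in V580_D6, so the E12.5_GC mean was 40.8 times the day 6 mean. Hoxd10, the next gene 5', had 8.997, 8.099 and 6.16 FPKM in E12.5_GC and 0.0242, 0 and 0.0461 in V580_D6. Hoxd11 had 0.803, 0.648 and 0.703 FPKM in E12.5_GC and was listed at 0 in every V580_D6 library. The groups were far apart in these genes, with log2(FPKM + 1) differences of V580_D6 from E12.5_GC of -4.62 (SE 0.11) for Hoxd9 and -3.08 (SE 0.09) for Hoxd10.

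In the other direction, Hoxb4 had 1.71, 1.25 and 1.19 FPKM in E12.5_GC and 17.02, 18.7 and 19.7 in V580_D6, a mean 13.4 times as high. Hoxc5 had 6.64, 6.72 and 6.02 FPKM in E12.5_GC and 50.5, 53.8 and 51.7 in V580_D6, a mean 8.05 times as high. Neither gene overlapped between the groups.

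Some members overlapped between induced and gonad cells or came closer by day 10. Hoxc6 had 12.4, 12.1 and 12.4 FPKM in E12.5_GC and 12.6, 11.8 and 12.9 in V580_D10, a log2(FPKM + 1) difference of 0.01 (SE 0.08). Hoxc9, a posterior gene, had 5.14, 4.35 and 3.22 FPKM in E12.5_GC and 3.74, 3.498 and 4.07 in V580_D6. Hoxd8 differed from E12.5_GC by -1.51 on the log2(FPKM + 1) scale in V580_D6 and by -0.75 in V580_D10, within the 2-fold limit on day 10.

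Summed over the 20 genes, V580_D6 had 182 to 195 FPKM, V580_D10 145 to 153 and E12.5_GC 127 to 150.1. Posterior genes made up 57.7% of this level in E12.5_GC, 8.7% in V580_D6 and 7.1% in V580_D10. Granulosa markers summed to 653 to 832 FPKM in E12.5_GC and 82.8 to 85.02 in V580_D6, mesothelial markers to 61.03 to 73.4 and 273 to 281, and erythroid markers to 1038 to 4435 and 0.0183 to 0.282. The part of cell makeup in the Hox difference was not tested. Of the cofactors, Meis1 and Meis2 were higher and Meis3 lower in V580_D6, and of 15 retinoid genes 7 were higher and 2 lower, where 7.06% and 8.11% of all genes were, with Cyp26a1 at a mean of 46.9 FPKM against 0.0392 in E12.5_GC. Of 15 Polycomb and trithorax genes Cbx7 was called, as higher.

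In single cells of V580 day 6, Hox genes were found in every cluster, and HoxA genes that the FPKM table does not list were visible. After filters 15315 cells fell into 11 clusters, no doublet caller was run, and with 1 sample there is no test. Levels are CPM (UMIs per 1000000 UMIs of a cluster), with exact Poisson 95% intervals for counting error only. Over all cells the Hox genes summed to 838 (834 to 843), of which HoxA made 36.1%, HoxB 30.7%, HoxC 27.5% and HoxD 5.6%. Hoxa5 was highest at 154, followed by Hoxc4 (97.8), Hoxb4 (85.2), Hoxc5 (77.6) and Hoxb2 (67.2). Hoxd9 was at 2.24 and Hoxd10, with 3 UMIs in all cells, at 0.0184.

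The clusters fell into a high and a low set. The mesothelial-like cluster 1 (3435 cells) summed to 1058 CPM of Hox UMIs, the interstitial or mesenchymal-like cluster 6 (972 cells) to 1086, the epithelial-like cluster 4 (1041 cells) to 937, and the unnamed cluster 2, led by cell cycle genes such as Mki67 and Top2a, to 978. Extraembryonic endoderm-like clusters 7 and 9 (943 and 264 cells) were at 214 and 232, and the unnamed clusters 5 and 8 at 224 and 156. Median depth was 22857 UMIs per cell in cluster 7, the highest of all, and 12266 in cluster 1. The other low clusters 5, 8 and 9 were shallow, with medians of 2251, 3311 and 2365 UMIs. The unnamed clusters 0 and 3, at 824 and 803, had median depths of 1451 and 2083 UMIs. Cluster 3 had a median of 16.1% mitochondrial UMIs. In clusters 7 and 8 HoxA held 43.3% and 36.8% of the Hox UMIs, and the part of free RNA in these UMIs was not tested.

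Members differed between the high clusters. Hoxb1, a hindbrain gene and an early target of retinoic acid, was at 21.5 (19.5 to 23.7) in cluster 4 and at 5.61 or less in every other cluster. Hoxa9 was at 72.04 (67.5 to 76.8) in cluster 6 and 11.1 (9.64 to 12.7) in cluster 4. Among clusters 0 to 9, cluster 6 was also highest in Hoxc6 (62.8), Hoxc8 (37.6), Hoxc9 (30.5) and Hoxa10 (15.9). Posterior genes made up 12.6% of the Hox UMIs there and 4.5% in cluster 4.

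The neuron-like cluster 10, with 28 cells, had 3855 CPM of Hox UMIs (3654 to 4064), the highest of the 11. HoxB made up 65.5% of them, with Hoxb9 at 525 (452 to 605), Hoxb4 at 463 and Hoxb8 at 389.98. In clusters 0 to 9 Hoxb9 lay between 1.49 and 11.1.

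**Figure D5:**
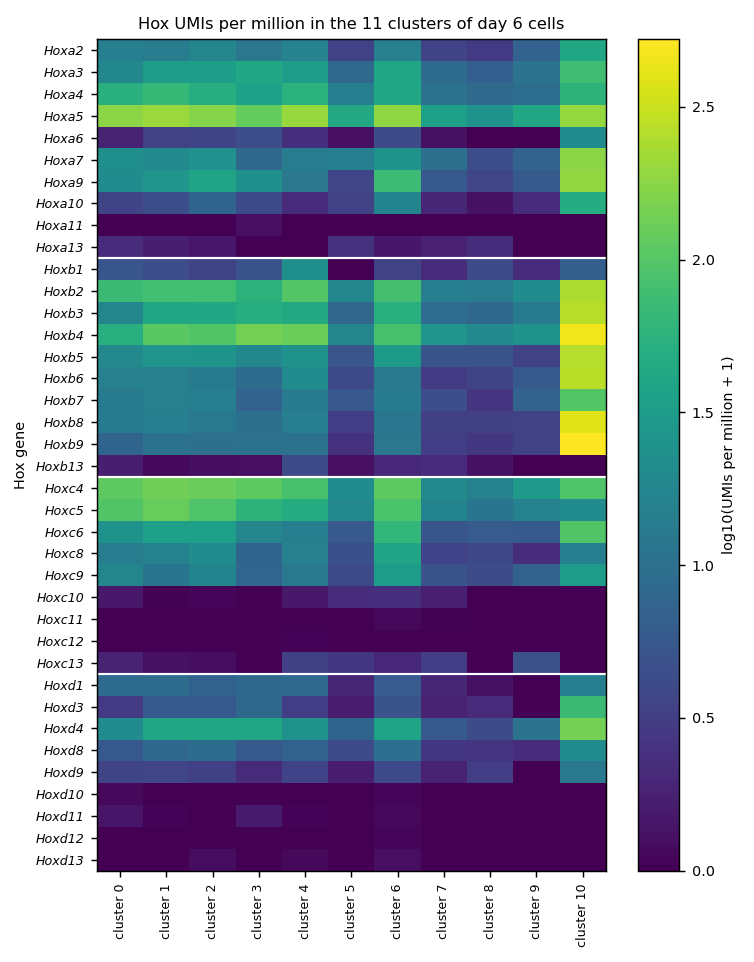
Heat map of 38 Hox genes (rows, by cluster of genes) in the 11 cell clusters of the day 6 10x sample (columns), coloured by log10(level + 1), the level in CPM. Clusters 5, 7, 8 and 9 are dim, cluster 10 is bright across HoxB, and the HoxD rows beyond Hoxd9 are dark throughout.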

How the data were processed

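The samples analysed were 39 bulk RNA-seq libraries and 1 10x sample of a series of 48 samples. Per the study's methods the authors aligned stage reads to mm10 with HISAT2 and deposited counts per gene from featureCounts. The deposited FPKM table was made by the authors with a tool not given in the sources used here, and its columns named C and X580 were taken as Vc and AM580. The 10x matrix holds UMI counts as deposited. A table with 10 per-sample columns that could not be matched to labels was not used.

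Members and gene lists were chosen with earlier results of these data known. Stage counts (8 libraries, 16398 genes after filterByExpr) were fitted with edgeR 4.0.16 (TMM, quasi-likelihood test, Benjamini-Hochberg adjusted p below 0.05). FPKM were fitted as log2(FPKM + 1) with limma 3.58.1 (trend, adjusted p below 0.05 and 2-fold), on genes with at least 1 FPKM in 3 libraries for the days (15 libraries, 11512 genes) or 2 for the treatments (16 libraries, 10644 genes) and for V580_D4 against V580_48h (31 libraries, 11921 genes). Fold changes with p were by rule given for called members with the largest changes (at most 8 a direction), a mean of 1 CPM or FPKM or more in the group that was higher and groups that did not overlap, and levels for Hoxb1, Hoxd1 and the most 5' genes. Some items are not reported here. Hoxc6, Hoxb4 by stage, Hoxd8 from E13.5 to E16.5 and V580 against AM580 for Hoxb4 were chosen after their values were seen. Cells were kept at 200 genes or more and up to 40% mitochondrial UMIs, then clustered with scanpy 1.11.5 (2000 variable genes without Hox genes, 20 components, 20 neighbours, Leiden resolution 0.5). Fits were tested on simulated data. Alternatives were DESeq2 1.42.0, other normalizations, filters, pseudocounts and fold limits, lane, length or replicate terms, cells thinned to 2000 UMIs, and leaving out each library.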

Additional observations from a re-analysis of the deposited data

Results flagged for a closer look

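The effect of AM580 on the Hox genes differed between 24 h and 48 h by a test of the difference itself (a limma contrast added after seeing the data, Benjamini-Hochberg adjusted p below 0.05 and 2-fold). Of 13 Hox genes tested, 10 had the larger effect at 48 h and 0 the larger effect at 24 h. Over all genes 1.9% were called in either direction. Of the 10, Hoxa3, Hoxb3, Hoxc4 and Hoxc5 reached 1 FPKM only in AM580_48h and V580_48h. Hoxb4, Hoxb5 and Hoxb8 did so only in AM580 and V580 groups. Outside those groups Hoxb6 did so in Vc_24h replicate 1 alone and Hoxb7 in Con_24h replicate 2 alone, where the filter needed 2 libraries. These were thus tested only through groups where they were high. For Hoxb4 the log2(FPKM + 1) effect was larger by 2.84 (SE 0.12) and for Hoxb9 by 3.77 (SE 0.15).

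For V580 the same contrast called 10 of 13 Hox genes, all with the larger effect at 48 h, where 1.83% of all genes were called. Here Hoxb4 differed by 4.02 (SE 0.12) and Hoxb9 by 4.46 (SE 0.15). The contrasts share all 4 Con libraries, whose Hox levels and fibroblast markers also differed between the times. For Vc limma called 0 of 13, where 0.0376% of all genes were called, with 2 at an unadjusted p under 0.05.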

How the results depend on the processing

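Of 195 alternative values for the 20 main results, 162 stayed close and 33 moved. A count stayed close if it was within 1.5 times the main count, or 0 in both. The 10x level stayed close if it lay in the interval of the main value. Of 3544 values for single Hox genes or cell clusters, 3305 kept their call or interval, and 0 genes reversed. With DESeq2 the called Hox genes were 2 from E12.5 to E13.5, 6 from E12.5 to E16.5 and 6 from E13.5 to E16.5. A 2-fold limit left 4 and 4 for the steps to E13.5 and from E13.5 to E16.5, and a length term gave 15 for the first. Leaving out 1 library gave 0 to 3 calls from E12.5 to E13.5, 5 to 7 from E12.5 to E16.5, 6 to 8 from E13.5 to E16.5, 13 to 15 from E12.5 to P6w and 8 to 12 from E16.5 to P6w. The lowest of these came without E12.5 replicate 2, either E12.5 library, E13.5 replicate 1 or E16.5 replicate 1, and P6w replicate 1 (E16.5 to P6w). Of the induction results, log2(FPKM + 0.1) gave 2 calls from D4 to D6, 4 for AM580_24h and 3 for V580_24h. Without the fold limit there were 8 (D4 to D6), 3 (D6 to D8), 9 (D8 to D10), 6 (AM580_24h), 6 (V580_24h), 2 (V580 against AM580 at 24 h), 1 (Vc_48h) and 8 (V580 against AM580 at 48 h). Leaving out 1 library gave 1 to 2 (D4 to D6), 1 to 2 (AM580_24h) and 0 to 1 (V580_24h). Day 4 replicate 1, day 6 replicates 1 and 3, AM580_24h replicate 2 and Con_24h replicates 1 and 2 decided these. Thinned to 2000 UMIs per cell, the 10x Hox level was 865. Without any 1 E12.5_GC library, lower calls against E12.5_GC were 2 for day 6 (4 with all) and 1 for day 10 (3 with all), since Hoxc10 and Hoxd10 then failed the filter. The cause of the other moves was not tested.

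Whether replicate numbers pair the libraries across groups was not settled. Correlations of same-numbered deviations were -0.04 to 0.067 for the stages, -0.42 to 0.21 for the treatments and -0.43 to 0.39 for the days. Of these, 0 of 12, 14 of 56 and 9 of 30 were over 0.1. With 2 libraries a group both replicates give the same value, so stage and treatment values are each counted 2 times. In the days, a library correlated best with its own number in 27 of 60 comparisons, each among 3 libraries of another group. With the replicate number as a block, 5 Hox genes were called from E12.5 to E13.5, 9 from E12.5 to E16.5, 10 from E13.5 to E16.5 and 13 from E16.5 to P6w, and the other 15 counts were equal to those without it.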
